A study of Mus musculus with 9 samples.

Results

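The collagen gene family of the mouse lung was followed through acute interleukin-33 (IL-33) inflammation. Members were taken by symbol, as every gene of the deposited table named Col, a type number, the letter a and a chain number, which gave 44 of its 34638 genes. The 9 libraries were made from whole lungs of wild-type C57BL/6 mice, 3 in each of 3 groups, and all groups had the same strain and genotype. The IL-33 group received 0.5 µg of recombinant mouse IL-33 into the trachea on days 0, 1, 2 and 3, and the control group received phosphate buffered saline (PBS) by the same scheme. The IL-33+LM8 group received LM8, an inhibitor of the adaptor protein MyD88, into the peritoneum at 10 mg/kg before the same IL-33 challenge. The study's methods describe the control and IL-33 mice as females of 6 to 8 weeks whose lungs were taken on day 4, and they give neither age, sex nor day of harvest for the IL-33+LM8 mice. No vehicle group for LM8 and no LM8 group without IL-33 were analysed here, so LM8 itself, its vehicle and the injection cannot be told apart.

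Collagens are trimers of chains that wind into a triple helix, and each chain has its own gene. Fibrillar collagens are cut outside the cell and assemble into the cables that give tissue its tensile strength, whereas type IV collagen forms the sheet-like network of basement membranes under epithelium and around vessels. Type VI collagen makes beaded microfilaments, the fibril-associated collagens with interrupted triple helices (FACIT) decorate fibrils, and the transmembrane collagens sit in the cell membrane. IL-33 is an alarmin released from damaged epithelium, and its receptor signals through MyD88. Collagen deposition under the airway epithelium is a classical feature of airway remodelling in asthma.

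Levels are given as FPKM, fragment counts scaled by gene length and library size, which lets genes be compared, and are listed in the order of replicates 1, 2 and 3. Differences are log2 fold changes of counts, tested by edgeR's quasi-likelihood method with p adjusted after Benjamini and Hochberg over all genes tested, with the standard error (SE) in parentheses, and a gene was called when its adjusted p was under 0.05. Folds are ratios of mean FPKM. Total counts per mouse were 61767006 to 73869252 in control, 53877663 to 66029783 in IL-33 and 59753648 to 90607218 in IL-33+LM8 lungs. In whole lung, fewer cells of a type and less RNA per cell cannot be told apart. Of the 44 collagen genes, 31 had the mean of 0.5 FPKM that the test required. Control replicate 2 was the lowest of the control mice for many matrix genes, and without it 12 tested collagen genes rose and 13 fell with IL-33, with *Col8a1* no longer called (-0.35, adjusted p = 0.050) and *Col4a2* called (-0.24, adjusted p = 0.024).

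Both the amount and the make-up of collagen mRNA differed between the groups. The FPKM of all 44 genes summed to 801, 567 and 692 in control lungs, 1176, 1235 and 1120.1 in IL-33 lungs and 669.7, 759.9 and 692 in IL-33+LM8 lungs, so that every IL-33 lung was above all others and the remaining groups overlapped. Fibrillar chains made up 21.5 to 22.5% of this sum in control, 44.8 to 46.6% in IL-33 and 22.5 to 28.3% in IL-33+LM8 lungs. Type IV chains went the other way in share, with 43.3 to 45.6% in control, 21.5 to 24.5% in IL-33 and 32.5 to 39.3% in IL-33+LM8 lungs. In summed FPKM, type IV chains were at 245 to 359 in control, 266 to 278 in IL-33 and 247 to 264 in IL-33+LM8 lungs. Both challenged ranges thus lay within the control range, while the fibrillar sums were 123 to 180, 502 to 576 and 151 to 215. The ratio of fibrillar to type IV mRNA was therefore 0.472 to 0.502 in control, 1.83 to 2.17 in IL-33 and 0.572 to 0.869 in IL-33+LM8 mice, and the ranges of the 3 groups did not overlap. Type VI chains took 21.6 to 22.8%, 24.9 to 26.2% and 29.1 to 31.3%, and their share was highest in the mice given LM8. Their summed FPKM was instead highest with IL-33, at 128 to 183 in control, 279 to 324 in IL-33 and 195 to 238 in IL-33+LM8 lungs. Transmembrane chains took 4.27 to 5.32% in control, 1.34 to 1.46% in IL-33 and 2.82 to 3.34% in IL-33+LM8 lungs.

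**Figure D1:**
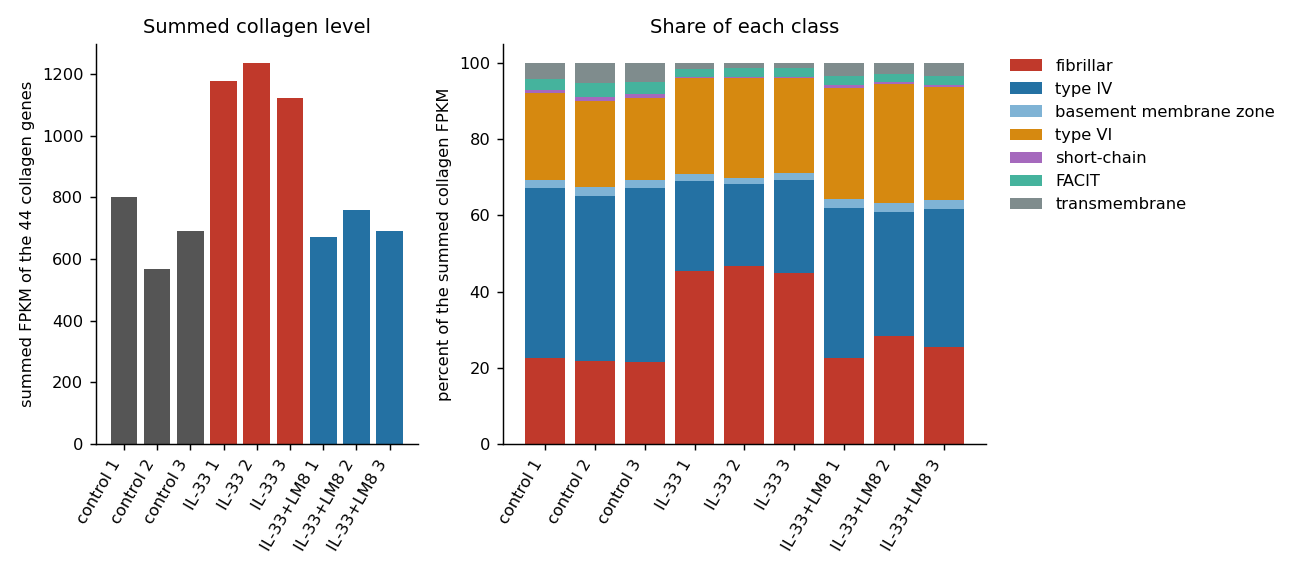
Left, summed FPKM of the 44 collagen genes in each mouse (bars start at 0). Right, percent of that sum held by each class in the same 9 mice (the remaining 2 genes hold under 0.05% and are not drawn), with fibrillar chains at 44.8 to 46.6% in IL-33 mice against 21.5 to 22.5% in control mice.

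In IL-33 against control lungs, 12 of the 31 tested collagen genes rose and 13 fell, which is 38.7% and 41.9%, while 27.4% and 27.2% of all 16831 genes tested rose and fell. At least 2-fold changes were found for 9 collagen genes upward and 6 downward, against 10.8% and 6.24% of all genes. In IL-33+LM8 against IL-33 lungs, 7 collagen genes were higher and 16 lower, which is 22.6% and 51.6%, beside 12.6% and 13.9% of all genes. The 2-fold limit was passed by 8 of the lower genes, where 3.93% of all genes passed it downward. The 7 higher genes lay under it, with *Col17a1* at 0.94 on the log2 scale as their maximum, where 1.46% of all genes passed it upward. In IL-33+LM8 against control lungs, 4 collagen genes were higher and 13 lower, which is 12.9% and 41.9%, beside 16.3% and 13.4% of all 16829 genes, so the higher share lies below the background. The 2-fold limit was passed there by 2 higher and 1 lower collagen gene, where 5.87% and 1.46% of all genes passed it. The median log2 fold change of the tested collagen genes was 0.08, -0.25 and -0.33 in these comparisons, and that of all genes was -0.0053, -0.0062 and 0.0035. The 3 comparisons share groups of mice and are not independent of each other.

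The direction of the calls was uneven across the classes, which were not tested against each other. With IL-33, 6 of 9 tested fibrillar genes and 3 of 4 tested type VI genes rose, whereas 4 of 6 type IV genes, both tested short-chain genes and all 3 tested transmembrane genes fell. Of the 4 tested FACIT genes 1 rose and 2 fell, and of the 3 genes that flank the basement membrane 2 rose and 1 fell. Of all genes tested, 27.4% rose and 27.2% fell. With LM8 added, 7 fibrillar and 4 type VI genes were lower than in IL-33 mice, and all 3 tested transmembrane genes were higher. In the same comparison 2 type IV genes were higher and 1 lower, and 1 FACIT gene was higher and 2 lower. The short-chain class had 1 higher gene, and 2 genes that flank the basement membrane were lower. Of all genes tested, 12.6% were higher and 13.9% lower there. The median log2 fold change from control to IL-33 was 1.49 for fibrillar, 1.03 for type VI, -0.87 for type IV and -1.14 for transmembrane genes. Across the family 9 genes were called in all 3 comparisons, and *Col4a2* and *Col11a2* were the tested genes called in none. The matching shares of all genes were not computed, so these counts only describe the family.

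**Figure D2:**
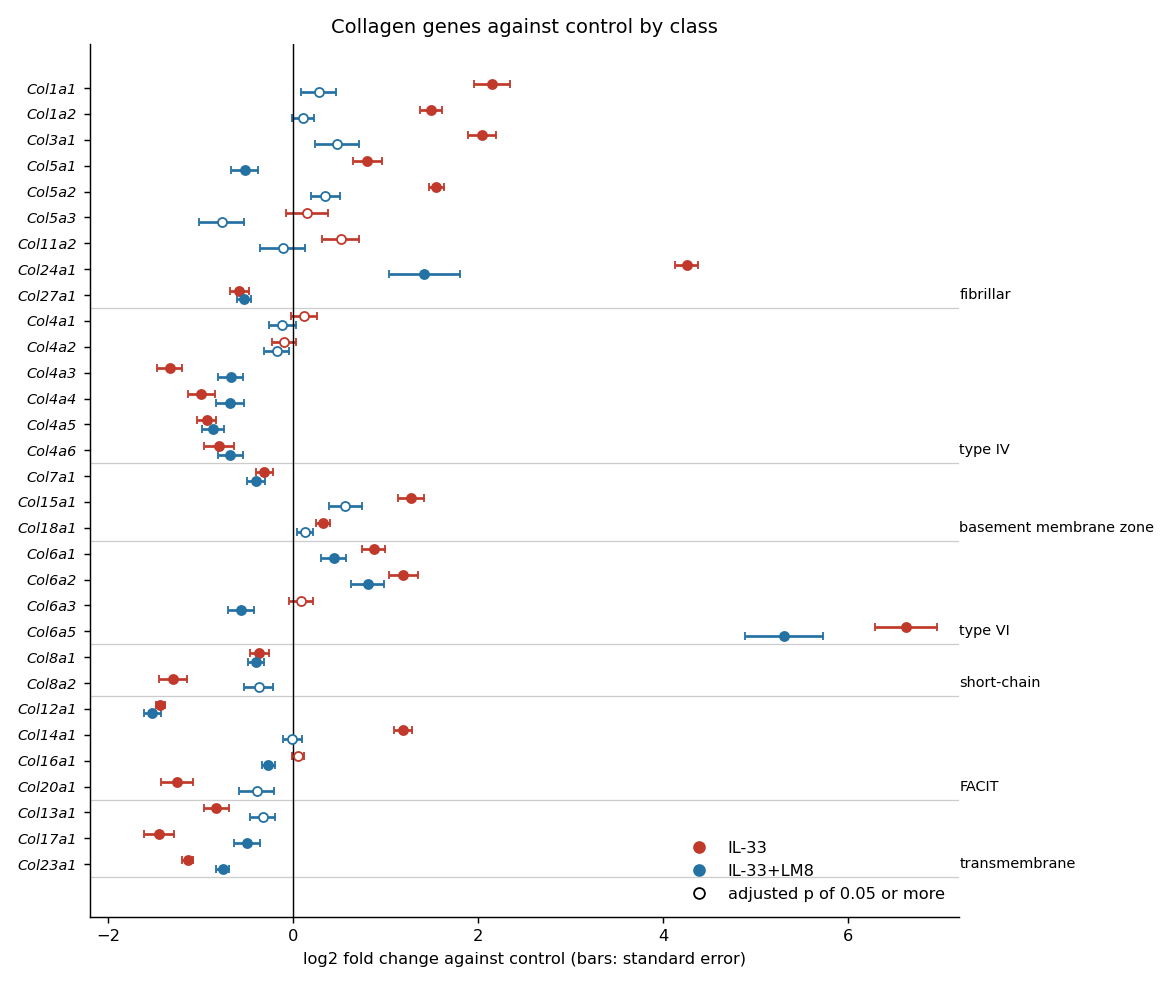
Log2 fold change against control (horizontal axis) of the 31 tested collagen genes for IL-33 (red) and IL-33+LM8 (blue) mice, ordered by class, with the standard error as bars and open symbols for genes that were not called. *Col6a5* and *Col24a1* lie farthest to the right with IL-33, at 6.62 and 4.25.

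Upstream sequences of 4 members are shown, for genes that rose and, for contrast, a gene that fell, all chosen after their values were seen. They are *Col3a1*, the most abundant fibrillar gene of the IL-33 lungs, *Col24a1* and *Col6a5*, which had the largest log2 fold changes of the tested members with IL-33, and *Col4a6*, 1 of the 4 type IV genes that fell and not the one with the largest fall. Each is the run of 250 bases that ends just before the RefSeq start of the gene, in build GRCm38.p6, at chr1:45311288-45311537 (plus strand), chr3:145292222-145292471 (plus strand), chr9:105960644-105960893 (minus strand) and chrX:141474077-141474326 (minus strand). None of the 4 windows overlaps an annotated exon. Capitals mark every match, on either strand, to the TATA box TATAAA, the CCAAT box CCAAT, the GC box GGGCGG or the STAT6-type palindrome TTCNNNNGAA, motifs that do not overlap in these windows.
Col3a1: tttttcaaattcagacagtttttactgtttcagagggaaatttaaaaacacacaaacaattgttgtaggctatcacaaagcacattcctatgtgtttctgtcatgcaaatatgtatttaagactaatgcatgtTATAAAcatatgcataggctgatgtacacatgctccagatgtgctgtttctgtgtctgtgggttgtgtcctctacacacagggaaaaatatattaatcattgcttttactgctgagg
Col24a1: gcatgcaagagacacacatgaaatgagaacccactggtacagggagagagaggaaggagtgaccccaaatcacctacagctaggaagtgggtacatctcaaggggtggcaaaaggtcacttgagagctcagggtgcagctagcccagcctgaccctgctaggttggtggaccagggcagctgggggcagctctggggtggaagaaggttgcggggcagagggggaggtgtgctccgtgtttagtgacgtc
Col6a5: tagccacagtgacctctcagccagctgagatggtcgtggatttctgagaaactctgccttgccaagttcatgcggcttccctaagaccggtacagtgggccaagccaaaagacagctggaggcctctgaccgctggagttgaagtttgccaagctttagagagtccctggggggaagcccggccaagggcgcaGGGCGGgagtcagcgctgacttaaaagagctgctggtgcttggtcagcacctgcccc
Col4a6: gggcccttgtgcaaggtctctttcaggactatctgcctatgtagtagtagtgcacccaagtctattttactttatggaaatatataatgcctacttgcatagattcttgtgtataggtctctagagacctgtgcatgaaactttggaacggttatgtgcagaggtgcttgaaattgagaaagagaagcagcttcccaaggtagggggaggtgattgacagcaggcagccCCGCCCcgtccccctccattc
The *Col3a1* window has a TATA box 111 bases before the start, the *Col6a5* window a GC box at 51 bases and the *Col4a6* window a GC box, read on the opposite strand, at 15 bases, while the *Col24a1* window holds none of these letters. RefSeq starts were given for 35 of the 44 genes, with 38 windows in all. A TATA box was present in 5 of the 38 windows, against 12.4% of 32851 windows of all genes, a CCAAT box in 13 against 33.8%, and a GC box in 22 against 32.7%. The STAT6-type palindrome, which the factor activated by interleukin-4 and interleukin-13 can bind, was in 0 of the 38 windows and in 5.85% of all windows. The median GC content was 59.0% in the collagen windows and 52.4% in all. Such matches describe letters and do not show binding.

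The chains of type I and type III collagen, the main fibrils of connective tissue, rose together with IL-33. *Col1a1*, *Col1a2* and *Col3a1* made up 17.6 to 18.8% of the summed collagen FPKM in control, 40.01 to 41.7% in IL-33 and 19.2 to 24.5% in IL-33+LM8 lungs. *Col1a1* (ENSMUSG00000001506, chromosome 11, 94936224 to 94953042, plus strand, GRCm38 with GENCODE M21), which encodes the α1 chain of type I collagen, was at 42.8, 24.8 and 33.2 FPKM in control lungs, 145, 166 and 136 FPKM in IL-33 lungs and 38.3, 42.96 and 39.5 FPKM in IL-33+LM8 lungs. All IL-33 mice lay far above the other 6, whose ranges overlapped. Mean levels were 33.6 ± 8.98 FPKM in control and 149 ± 15.3 FPKM with IL-33 (SD, n = 3 mice each), a 4.44-fold rise with a log2 fold change of 2.15 (SE 0.20, adjusted p = 9.5e-05). With LM8 it was lower than in IL-33 mice by a log2 fold change of -1.89 (SE 0.09, adjusted p = 4.8e-05), and the value against control was 0.27 (SE 0.19, adjusted p = 0.31). *Col1a2*, the partner chain of the type I trimer, was at 36.98, 27.9 and 31.8 FPKM in control, 89.8, 97.3 and 84.6 FPKM in IL-33 and 32.3, 37.7 and 33.03 FPKM in IL-33+LM8 lungs. It showed the same order of groups with a smaller span, a log2 fold change of 1.49 with IL-33 (SE 0.12, adjusted p = 4.2e-05), -1.40 with LM8 added (SE 0.09, adjusted p = 0.00011) and 0.11 in IL-33+LM8 against control (SE 0.12). The ratio of *Col1a1* to *Col1a2* FPKM was 0.890 to 1.16 in control, 1.61 to 1.70 in IL-33 and 1.14 to 1.19 in IL-33+LM8 mice. *Col3a1*, the single chain of type III collagen, whose upstream window is printed above, was at 70.9, 46.97 and 57.03 FPKM in control, 241, 252 and 228 FPKM in IL-33 and 57.98, 105 and 77.9 FPKM in IL-33+LM8 lungs. The IL-33 mice were again separate, and IL-33+LM8 replicate 2 was the only other mouse above 100 FPKM. The log2 fold change was 2.04 with IL-33 (SE 0.15, adjusted p = 3.4e-05) and -1.58 with LM8 added (SE 0.20, adjusted p = 0.0014), with 0.48 in IL-33+LM8 against control (SE 0.24, adjusted p = 0.17). *Col3a1* shares 1.12% of its 31-base stretches with another annotated gene.

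**Figure D3:**
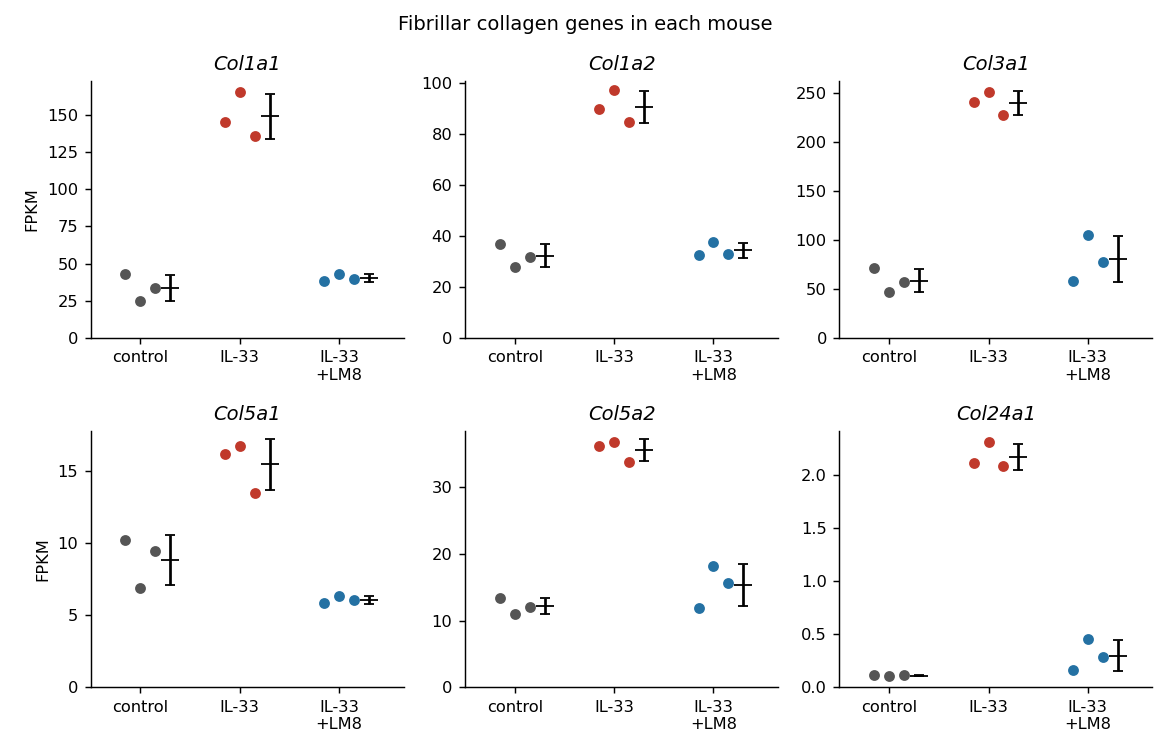
FPKM (vertical axis, linear, starting at 0) of the 6 fibrillar collagen genes called higher with IL-33, in the 3 groups, with a point for each mouse and the mean with its SD to the right. In all 6 panels the IL-33 mice lie above every control and every IL-33+LM8 mouse, which goes with how the genes were chosen. Of the tested fibrillar genes not drawn, *Col5a3* and *Col11a2* were not called with IL-33 and *Col27a1* fell.

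The chains of type V collagen, which nucleates type I fibrils and limits their width, did not move as a unit. *Col5a2* was at 13.4, 11.00 and 12.1 FPKM in control, 36.1, 36.8 and 33.8 FPKM in IL-33 and 11.96, 18.3 and 15.7 FPKM in IL-33+LM8 lungs. The IL-33 mice stood apart, and the log2 fold change with IL-33 was 1.55 (SE 0.08, adjusted p = 8.3e-06) and with LM8 added -1.21 (SE 0.15, adjusted p = 0.0010). *Col5a1* was at 10.2, 6.89 and 9.47 FPKM in control, 16.2, 16.8 and 13.5 FPKM in IL-33 and 5.83, 6.37 and 6.08 FPKM in IL-33+LM8 lungs, so that the LM8 mice lay below the control mice too. It rose by 0.80 with IL-33 on the log2 scale (SE 0.15, adjusted p = 0.0036) and was at -1.34 with LM8 added (SE 0.09, adjusted p = 0.00012), and its value in IL-33+LM8 against control was -0.53 (SE 0.14, adjusted p = 0.031). That last call was lost without control replicate 1 (-0.40) or 3 (-0.48), or without IL-33+LM8 replicate 1 (-0.49), 2 (-0.56) or 3 (-0.52). *Col5a3*, another type V chain, was at 1.38, 0.831 and 0.828 FPKM in control, 1.05, 1.15 and 1.17 FPKM in IL-33 and 0.562, 0.666 and 0.539 FPKM in IL-33+LM8 lungs. The control and IL-33 ranges overlapped (0.14, SE 0.23), while every LM8 mouse lay below the rest, at -0.93 against IL-33 (SE 0.15, adjusted p = 0.0039). Against control *Col5a3* was at -0.77 (SE 0.25, adjusted p = 0.052). It passed the threshold under 5 of 15 alternatives, among them DESeq2 (-0.78, adjusted p = 0.010) and the fit of all 9 mice (-0.77, adjusted p = 0.022). With the replicate number as a block, another of the 5, it was at -0.73 (adjusted p = 0.048).

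Among the minor fibrillar collagens, *Col24a1* had the second largest change of the tested members and *Col27a1* the opposite sign. *Col24a1*, chromosome 3 from 145292472 to 145552011 on the plus strand, was at 0.112, 0.110 and 0.113 FPKM in control, 2.12, 2.31 and 2.08 FPKM in IL-33 and 0.162, 0.452 and 0.283 FPKM in IL-33+LM8 lungs. It was low and nearly constant among the control mice, and the LM8 mice differed from each other more than those of the other groups. IL-33 raised it 19.4-fold, with a log2 fold change of 4.25 (SE 0.13, adjusted p = 1.1e-06), and with LM8 it was lower than in IL-33 mice by a log2 fold change of -2.85 (SE 0.34, adjusted p = 0.0011). *Col24a1* averaged 0.112 FPKM in control and 0.299 FPKM in IL-33+LM8 lungs, so only its IL-33 level brought it past the limit of 0.5 FPKM. The rise kept its call under all 15 alternatives, among them the fit without that filter, but its size went down to 1.51. Its value in IL-33+LM8 against control was 1.42 (SE 0.38, adjusted p = 0.030), a call that was lost without control replicate 1 (1.43), 2 (1.41) or 3 (1.41) and without IL-33+LM8 replicate 2 (0.99) or 3 (1.46). *Col27a1*, a fibrillar collagen of cartilage and developing tissue, was at 3.48, 3.85 and 3.66 FPKM in control, 2.47, 2.78 and 2.10 FPKM in IL-33 and 2.68, 2.49 and 2.37 FPKM in IL-33+LM8 lungs. Every challenged mouse lay below every control mouse, at -0.58 with IL-33 (SE 0.10, adjusted p = 0.0026) and -0.53 with IL-33+LM8 (SE 0.07, adjusted p = 0.0022). *Col11a2*, a chain of type XI collagen, which is best known from cartilage, was at 0.974, 0.650 and 0.890 FPKM in control, 1.01, 1.24 and 1.35 FPKM in IL-33 and 0.955, 0.786 and 0.565 FPKM in IL-33+LM8 lungs and was not called in any comparison (0.51 with IL-33, SE 0.20, adjusted p = 0.064).

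Type VI collagen held the member with the largest change, *Col6a5*. Type VI filaments are built around the α1 and α2 chains with a larger chain beside them, for which the products of *Col6a3*, *Col6a4*, *Col6a5* and *Col6a6* are alternatives. *Col6a5* (chromosome 9, 105856078 to 105960643, minus strand) was at 0.290, 0.112 and 0.146 FPKM in control, 17.9, 20.9 and 15.6 FPKM in IL-33 and 5.13, 9.67 and 6.85 FPKM in IL-33+LM8 lungs. The 3 groups did not overlap, and the LM8 mice were closer to the IL-33 mice than to control on a log scale. Its mean went from 0.183 ± 0.0947 to 18.1 ± 2.66 FPKM (SD, n = 3 mice each), 99.03-fold, with a log2 fold change of 6.62 (SE 0.34, adjusted p = 6.3e-06). With LM8 it was lower than in IL-33 mice (-1.32, SE 0.22, adjusted p = 0.0047) and remained at a log2 fold change of 5.31 above control (SE 0.42, adjusted p = 0.00022). On the log2(FPKM + 1) scale, which compresses low values, limma gave 4.01 and 2.76 for *Col6a5* in IL-33 and in IL-33+LM8 against control. Relative to *Col6a3*, *Col6a5* went from 0.00655 to 0.0116 in control to 0.716 to 0.916 in IL-33 and 0.392 to 0.639 in IL-33+LM8 lungs.

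The neighbours of *Col6a5* on chromosome 9 stayed below the expression limit of the test. *Col6a6* was counted 28, 54 and 56 times in control, 177, 198 and 125 times in IL-33 and 30, 52 and 50 times in IL-33+LM8 lungs, so it was highest in the IL-33 mice. Without the filter on low values its log2 fold change was 1.99 with IL-33 (SE 0.34, adjusted p = 0.0037) and -2.12 with LM8 added (SE 0.32, adjusted p = 0.0042). *Col6a5* shares 375 of its 9411 stretches of 31 bases with *Col6a6*, and how far shared reads entered the *Col6a6* counts was not tested. *Col6a4* was counted 125, 42 and 113 times in control, 115, 108 and 42 times in IL-33 and 115, 113 and 150 times in IL-33+LM8 lungs, with overlapping groups.

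*Col6a1* and *Col6a2*, which lie next to each other on chromosome 10, moved alike. *Col6a1* was at 112, 81.3 and 92.3 FPKM in control, 170.4, 189 and 163 FPKM in IL-33 and 121, 139 and 123 FPKM in IL-33+LM8 lungs, and *Col6a2* at 44.95, 29.2 and 36.1, 83.5, 91.00 and 77.8 and 55.6, 73.9 and 61.5 FPKM. For both genes the IL-33 mice were highest and the LM8 mice lay between them and control without overlap. With IL-33 the log2 fold change was 0.87 for *Col6a1* (SE 0.13, adjusted p = 0.00088) and 1.19 for *Col6a2* (SE 0.16, adjusted p = 0.00055). In IL-33+LM8 against control *Col6a2* was at 0.81 (SE 0.18, adjusted p = 0.014) and *Col6a1* at 0.44 (SE 0.13, adjusted p = 0.043). The *Col6a1* call was lost without control replicate 2 (0.34) or 3 (0.41) and without IL-33+LM8 replicate 1 (0.48), 2 (0.37) or 3 (0.46). The fall of *Col6a2* with LM8, -0.40 (SE 0.12, adjusted p = 0.041), was lost without IL-33 replicate 1 (-0.40), 2 (-0.34) or 3 (-0.44) and without IL-33+LM8 replicate 1 (-0.31) or 3 (-0.36). In all it was lost under 8 of 15 alternatives, among them no filter on low values (-0.39, adjusted p = 0.071) and the fit of all 9 mice (-0.39, adjusted p = 0.11). *Col6a3*, the usual larger chain, was at 25.1, 17.1 and 20.7 FPKM in control, 22.3, 22.8 and 21.8 FPKM in IL-33 and 13.1, 15.1 and 13.99 FPKM in IL-33+LM8 lungs. It overlapped between control and IL-33 (0.08, SE 0.13), and every LM8 mouse was below all others, at -0.66 against IL-33 (SE 0.07, adjusted p = 0.00051) and -0.56 against control (SE 0.14, adjusted p = 0.024). The call against control was lost without IL-33+LM8 replicate 1 (-0.51) or 3 (-0.56). As a result the ratio of *Col6a1* to *Col6a3* was 4.45 to 4.75 in control, 7.51 to 8.28 in IL-33 and 8.80 to 9.25 in IL-33+LM8 mice.

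**Figure D4:**
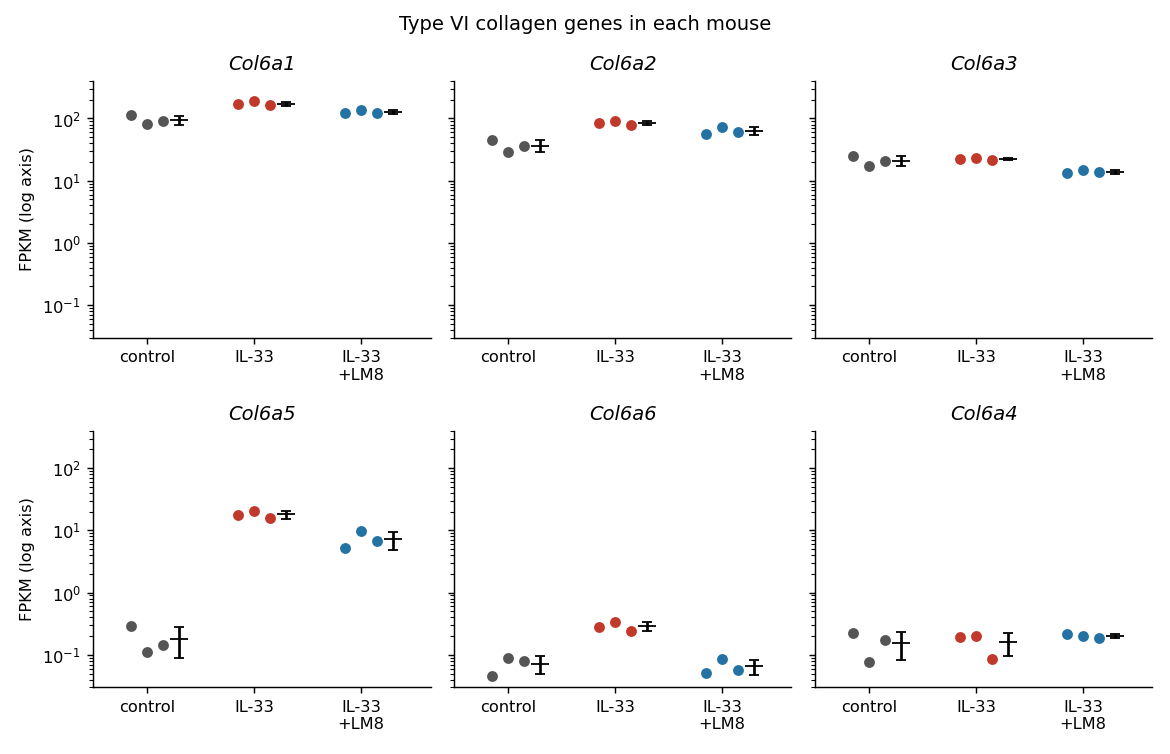
FPKM (vertical axis, log scale, the same in all panels) of the 6 type VI collagen genes in the 3 groups, with a point for each mouse and the mean with its SD to the right. *Col6a5* runs from 0.290, 0.112 and 0.146 FPKM in control mice to 17.9, 20.9 and 15.6 FPKM in IL-33 mice, while *Col6a3* stays between 13.1 and 25.1 FPKM in all mice.

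Type IV collagen split by chain. *Col4a1* and *Col4a2* encode the α1 and α2 chains found in almost every basement membrane, and the α3, α4 and α5 chains form the network of the alveolar and glomerular basement membranes. *Col4a1*, among the most abundant collagen genes of the control lungs, was at 142, 93.98 and 122 FPKM in control, 132, 126 and 131 FPKM in IL-33 and 112, 107 and 108 FPKM in IL-33+LM8 lungs, and *Col4a2* at 136, 94.9 and 124, 113, 107 and 112 and 108, 99.98 and 102 FPKM. The control range, with replicate 2 at its bottom, covered or overlapped the other groups for both genes. The log2 fold change with IL-33 was 0.12 for *Col4a1* (SE 0.14, adjusted p = 0.52) and -0.03 without control replicate 2, and -0.10 for *Col4a2* (SE 0.13, adjusted p = 0.53). Without control replicate 2 *Col4a2* was called lower than control with IL-33 (-0.24, adjusted p = 0.024) and with IL-33+LM8 (-0.31, adjusted p = 0.042). *Col4a1* was slightly lower with LM8 than in IL-33 mice (-0.25, SE 0.06, adjusted p = 0.015), a call that was lost without IL-33 replicate 1 (-0.24) or 3 (-0.23) or IL-33+LM8 replicate 3 (-0.23). These genes lie head to head on chromosome 8 and overlap by 22 bases.

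*Col4a3* and *Col4a4*, another head-to-head pair on chromosome 1, fell. *Col4a3* was at 34.1, 23.3 and 29.2 FPKM in control, 12.1, 11.4 and 10.97 FPKM in IL-33 and 17.8, 18.1 and 17.9 FPKM in IL-33+LM8 lungs, with the groups fully separate and LM8 between. Mean levels were 28.9 ± 5.44 and 11.5 ± 0.556 FPKM (SD, n = 3 mice each), a 2.52-fold fall with a log2 fold change of -1.34 (SE 0.13, adjusted p = 0.00015), and with LM8 it was higher than in IL-33 mice by 0.65 (SE 0.05, adjusted p = 0.00019). *Col4a4* was at 22.98, 14.97 and 19.2 FPKM in control, 9.68, 9.51 and 9.61 FPKM in IL-33 and 12.5, 10.99 and 11.7 FPKM in IL-33+LM8 lungs. Its groups were separate as well, with -0.99 for IL-33 against control (SE 0.14, adjusted p = 0.00093) and 0.29 for LM8 against IL-33 (SE 0.05, adjusted p = 0.0073), the latter not called in the fit of all 9 mice (0.31, adjusted p = 0.12). Against control the LM8 mice were at -0.67 for *Col4a3* (SE 0.13, adjusted p = 0.0098) and -0.68 for *Col4a4* (SE 0.15, adjusted p = 0.014), the latter lost without IL-33+LM8 replicate 2 (-0.64). The ratio of *Col4a3* to *Col4a1*, in which the low level of control replicate 2 cancels, was 0.240, 0.248 and 0.239 in control, 0.0916, 0.0901 and 0.0836 in IL-33 and 0.159, 0.169 and 0.166 in IL-33+LM8 mice. Mice of a group thus differed little in this ratio.

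*Col4a5* and *Col4a6*, head to head on the X chromosome, fell with IL-33 and showed no separation of the challenged groups. *Col4a5*, the partner of the α3 and α4 chains, was at 19.9, 14.9 and 17.5 FPKM in control, 9.02, 9.40 and 9.01 FPKM in IL-33 and 10.3, 8.74 and 9.39 FPKM in IL-33+LM8 lungs, at -0.94 with IL-33 (SE 0.11, adjusted p = 0.00025) and -0.87 with IL-33+LM8 against control (SE 0.12, adjusted p = 0.0019). *Col4a6* was at 4.10, 3.11 and 3.32 FPKM in control, 2.10, 2.31 and 1.64 FPKM in IL-33 and 2.41, 2.004 and 2.10 FPKM in IL-33+LM8 lungs, at -0.80 (SE 0.16, adjusted p = 0.0044) and -0.68 (SE 0.13, adjusted p = 0.0093). Between IL-33 and IL-33+LM8 the values were 0.05 (SE 0.07) for *Col4a5* and 0.10 (SE 0.14) for *Col4a6*.

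**Figure D5:**
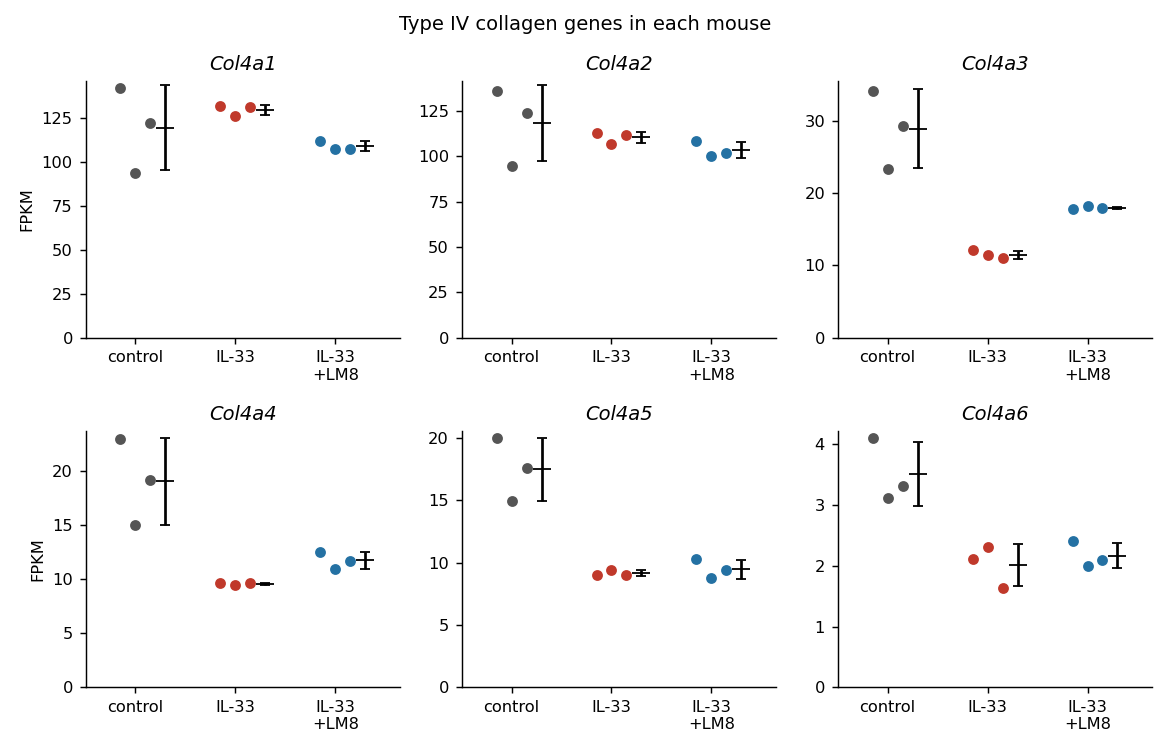
FPKM (vertical axis, linear, starting at 0) of the 6 type IV collagen genes in the 3 groups, with a point for each mouse and the mean with its SD to the right. *Col4a1* and *Col4a2* overlap between control and IL-33 mice, and the other 4 genes lie lower in every IL-33 mouse than in any control mouse.

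Of the collagens that flank the basement membrane, *Col15a1* and *Col18a1* rose with IL-33 and *Col7a1* fell. *Col15a1*, a proteoglycan core protein that ties the basement membrane to fibrils, was at 2.84, 2.18 and 2.05 FPKM in control, 5.92, 5.93 and 5.29 FPKM in IL-33 and 2.88, 4.07 and 3.39 FPKM in IL-33+LM8 lungs. The groups were separate, with log2 fold changes of 1.27 (SE 0.14, adjusted p = 0.00021) for IL-33 against control, -0.73 (SE 0.13, adjusted p = 0.0061) for LM8 against IL-33 and 0.56 (SE 0.18, adjusted p = 0.051) for LM8 against control. The last value was called under 5 of 15 alternatives, among them DESeq2 (0.56, adjusted p = 0.0081), the fit of all 9 mice (0.56, adjusted p = 0.021) and the fits without control replicate 1 (0.73, adjusted p = 0.032) or IL-33+LM8 replicate 1 (0.68, adjusted p = 0.036). *Col18a1*, the precursor of endostatin, was at 11.9, 9.92 and 10.4 FPKM in control, 13.8, 13.7 and 12.9 FPKM in IL-33 and 11.8, 11.8 and 11.3 FPKM in IL-33+LM8 lungs. Its rise was 0.32 (SE 0.08, adjusted p = 0.011), and its fall with LM8, -0.21 (SE 0.05, adjusted p = 0.018), was lost without IL-33 replicate 1 (-0.19) or 2 (-0.20) or IL-33+LM8 replicate 3 (-0.18). That fall was also not called without a filter on low values (adjusted p = 0.051) or in the fit of all 9 mice (adjusted p = 0.074). *Col7a1*, the anchoring fibril collagen, was at 2.25, 2.01 and 2.07 FPKM in control, 1.83, 1.62 and 1.65 FPKM in IL-33 and 1.70, 1.56 and 1.48 FPKM in IL-33+LM8 lungs. Control mice were the highest throughout, with -0.31 for IL-33 (SE 0.09, adjusted p = 0.022) and -0.40 for IL-33+LM8 (SE 0.10, adjusted p = 0.021). The first call was lost without control replicate 1 (-0.25) or IL-33 replicate 2 (-0.26) or 3 (-0.28), and the second without control replicate 1 (-0.34) or IL-33+LM8 replicate 2 (-0.39) or 3 (-0.35).

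The fibril-associated collagens *Col12a1* and *Col14a1*, close relatives that coat the surface of type I fibrils, changed in opposite directions. *Col12a1* was at 5.35, 5.16 and 5.30 FPKM in control, 1.99, 1.91 and 1.94 FPKM in IL-33 and 1.98, 1.58 and 1.89 FPKM in IL-33+LM8 lungs. Both challenged groups were far below control and overlapped each other, and the log2 fold change was -1.44 with IL-33 (SE 0.05, adjusted p = 1.6e-06), -1.52 with IL-33+LM8 against control (SE 0.09, adjusted p = 7.1e-05) and -0.10 with LM8 against IL-33 (SE 0.09). *Col12a1* was the single collagen gene lower than control by 2-fold or more in the LM8 mice. *Col14a1* was at 8.004, 6.27 and 6.998 FPKM in control, 15.8, 16.8 and 15.98 FPKM in IL-33 and 6.72, 7.07 and 7.16 FPKM in IL-33+LM8 lungs. The IL-33 mice stood alone, with 1.19 against control (SE 0.09, adjusted p = 4.7e-05) and -1.21 for LM8 against IL-33 (SE 0.06, adjusted p = 4.4e-05), and the LM8 and control mice differed by -0.01 (SE 0.10). The ratio of *Col12a1* to *Col14a1* was 0.669 to 0.823 in control, 0.114 to 0.126 in IL-33 and 0.224 to 0.295 in IL-33+LM8 mice.

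The other 2 tested FACIT genes changed less or were read less deeply. *Col16a1* was at 7.52, 7.01 and 7.72 FPKM in control, 7.78, 8.11 and 7.25 FPKM in IL-33 and 6.06, 6.39 and 5.84 FPKM in IL-33+LM8 lungs, with every LM8 mouse lowest (-0.34 against IL-33, SE 0.07, adjusted p = 0.011). Its call against control, -0.27 (SE 0.07, adjusted p = 0.029), was lost without control replicate 1 (-0.25) or 3 (-0.25) or IL-33+LM8 replicate 1 (-0.26) or 3 (-0.24). *Col20a1* was at 1.61, 1.55 and 1.70 FPKM in control, 0.545, 0.759 and 0.730 FPKM in IL-33 and 1.56, 0.971 and 1.13 FPKM in IL-33+LM8 lungs, with a log2 fold change of -1.26 with IL-33 (SE 0.17, adjusted p = 0.00069). Its higher level with LM8 than in IL-33 mice, 0.85 (SE 0.23, adjusted p = 0.033), was lost without IL-33 replicate 1 (0.72), 2 (0.94) or 3 (0.92) and without IL-33+LM8 replicate 1 (0.64) or 3 (0.91). The span of *Col20a1* overlaps the same-strand gene *9230112E08Rik* by 741 bases, and 0.93% of its 31-base stretches are shared with that gene. How far reads of that gene entered the *Col20a1* counts was not tested.

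The 2 tested short-chain collagens, of a class which forms hexagonal lattices in vessel walls and under endothelium, fell with IL-33. *Col8a2* was at 2.82, 3.52 and 4.02 FPKM in control, 1.47, 1.48 and 1.24 FPKM in IL-33 and 3.02, 2.57 and 2.31 FPKM in IL-33+LM8 lungs, so the IL-33 mice were lowest and the other groups overlapped. The log2 fold change was -1.30 with IL-33 (SE 0.15, adjusted p = 0.00032) and 0.91 with LM8 added (SE 0.14, adjusted p = 0.0033). *Col8a1* was at 2.02, 2.16 and 2.19 FPKM in control, 1.74, 1.75 and 1.46 FPKM in IL-33 and 1.62, 1.53 and 1.60 FPKM in IL-33+LM8 lungs, with control highest. It was at -0.37 with IL-33 (SE 0.10, adjusted p = 0.019), a call lost without control replicate 2 (-0.35) or 3 (-0.35) or IL-33 replicate 3 (-0.28), and at -0.41 with IL-33+LM8 (SE 0.09, adjusted p = 0.013), a call lost without IL-33+LM8 replicate 3 (-0.41).

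The 3 tested transmembrane collagens were lowest in every IL-33 mouse and higher with LM8. *Col23a1* was at 17.9, 17.4 and 17.3 FPKM in control, 7.91, 8.50 and 7.48 FPKM in IL-33 and 10.8, 9.31 and 10.6 FPKM in IL-33+LM8 lungs. Its groups were separate, with -1.14 for IL-33 (SE 0.06, adjusted p = 7.6e-06) and 0.36 for LM8 against IL-33 (SE 0.08, adjusted p = 0.014), the latter lost without IL-33 replicate 1 (0.36) or 3 (0.33). *Col13a1*, found at cell adhesions and neuromuscular junctions, was at 15.1, 11.3 and 16.1 FPKM in control, 8.80, 7.61 and 7.48 FPKM in IL-33 and 10.4, 11.3 and 11.7 FPKM in IL-33+LM8 lungs. It fell by 0.83 with IL-33 (SE 0.13, adjusted p = 0.0016) and was higher by 0.49 with LM8 (SE 0.08, adjusted p = 0.0049). *Col17a1*, the hemidesmosome collagen of basal epithelial cells, was at 1.09, 1.25 and 1.31 FPKM in control, 0.424, 0.396 and 0.503 FPKM in IL-33 and 0.946, 0.794 and 0.811 FPKM in IL-33+LM8 lungs, with no overlap between groups. It fell by 1.45 with IL-33 (SE 0.16, adjusted p = 0.00026) and was higher by 0.94 with LM8 (SE 0.18, adjusted p = 0.0078). Its call in IL-33+LM8 against control, -0.50 (SE 0.14, adjusted p = 0.036), was lost without control replicate 2 (-0.48) or 3 (-0.45) or IL-33+LM8 replicate 2 (-0.46) or 3 (-0.47).

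The 13 members that were not tested are mostly chains of cartilage and other specialised tissues. They are *Col2a1*, *Col11a1*, *Col9a1*, *Col9a2*, *Col9a3*, *Col10a1*, *Col6a4*, *Col6a6*, *Col19a1*, *Col22a1*, *Col25a1*, *Col26a1* and *Col28a1*. Their mean stayed at or under 0.417 FPKM, no mouse exceeded 0.607 FPKM or 198 counts for any of them, and 5 had 0 counts in at least 1 mouse, where a count of 0 allows up to 3 counts by counting error alone. *Col2a1*, the main cartilage fibril chain, was counted 6, 4 and 0 times in control, 12, 8 and 12 times in IL-33 and 12, 18 and 4 times in IL-33+LM8 lungs.

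Genes that act on collagen chains were grouped by the step they serve, and the counts in these lists are read beside all genes tested, of which 27.4% rose and 27.2% fell with IL-33, 12.6% were higher and 13.9% lower with LM8 than with IL-33, and 16.3% were higher and 13.4% lower in IL-33+LM8 than in control. Of 17 tested genes for hydroxylation and folding in the endoplasmic reticulum, 6 rose and 6 fell with IL-33, not far from the shares of all genes. *P4ha3*, a catalytic subunit of prolyl 4-hydroxylase, was at 0.564, 0.213 and 0.361 FPKM in control, 1.36, 1.59 and 1.35 FPKM in IL-33 and 0.421, 0.450 and 0.517 FPKM in IL-33+LM8 lungs and rose by 1.90 on the log2 scale (SE 0.35, adjusted p = 0.0030), whereas the more abundant subunit *P4ha1* was at 42.7, 38.6 and 43.7, 23.5, 24.5 and 21.8 and 27.6, 33.1 and 30.5 FPKM and fell (-0.84, SE 0.07, adjusted p = 4.8e-05). *P4ha2* (-0.78) and the collagen galactosyltransferase *Colgalt2* (-1.46) fell too. *P4ha3* averaged 0.380 FPKM in control and 0.463 FPKM in IL-33+LM8 lungs, so only its IL-33 level brought it past the limit of 0.5 FPKM. Its rise kept its call under all 15 alternatives, among them the fit without that filter. *P4hb*, the shared subunit and the most abundant gene of the list, rose by 0.61 (SE 0.05, adjusted p = 5.1e-05). With LM8 added, 2 were higher and 3 lower than in IL-33 mice, among them *P4ha3* (-1.63), *Colgalt1* (-0.42) and *Fkbp10* (-0.40), and in IL-33+LM8 against control 4 were higher and 5 lower.

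Of the 7 cross-linking genes, 5 rose and 1 fell with IL-33, and with LM8 against IL-33 4 were lower and 3 were not called, where 27.4% and 27.2% of all genes rose and fell with IL-33 and 13.9% were lower with LM8. Both counts include *Loxl1*, at 0.47 with IL-33 and -0.61 with LM8, whose call was lost under 9 and 5 of 15 alternatives, among them the fits without IL-33 replicate 1 (0.49 and -0.61) or 3 (0.38 and -0.50) and, with IL-33, without control replicate 1 (0.44) or 2 (0.33). Lysyl oxidases oxidise lysines so that neighbouring molecules bond. *Lox* was at 17.3, 11.2 and 18.6 FPKM in control, 35.9, 34.7 and 33.8 FPKM in IL-33 and 17.2, 19.4 and 22.4 FPKM in IL-33+LM8 lungs (1.15 with IL-33, SE 0.17, adjusted p = 0.0011). *Loxl3* (1.17, SE 0.10) and *Loxl4* (1.47, SE 0.14) rose too. *Lox* and *Loxl3* were lower with LM8 than in IL-33 mice, at -0.82 and -0.72, while *Loxl4* remained above control in the LM8 mice (1.51, SE 0.24, adjusted p = 0.0037). *Loxl2* was lower in LM8 than in IL-33 mice (-1.01, SE 0.10) and than in control (-0.57, SE 0.11, adjusted p = 0.0074). *Pxdn*, peroxidasin, which forms the sulfilimine bonds of type IV collagen, was the gene of this list that was lower than control in IL-33+LM8 beside *Loxl2* (-0.43, SE 0.09), and *Tgm2* was its most abundant member.

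For export and propeptide removal, 3 of 10 tested genes rose and 2 fell with IL-33, and 2 were higher and 2 lower with LM8 than with IL-33, near the 27.4%, 27.2%, 12.6% and 13.9% of all genes. Of the 2 higher genes, *Adamts14* (0.54) lost its call under 9 of 15 alternatives, among them the fits without any 1 of the IL-33 mice (0.52 to 0.60) or without IL-33+LM8 replicate 1 (0.40) or 3 (0.58). *Pcolce2*, an enhancer of procollagen C-proteinase and the most abundant gene of this list, was at 55.1, 65.8 and 66.8 FPKM in control, 17.2, 16.7 and 17.6 FPKM in IL-33 and 32.5, 28.6 and 32.3 FPKM in IL-33+LM8 lungs. The groups did not overlap, with -1.86 for IL-33 (SE 0.08, adjusted p = 2.8e-06) and 0.86 for LM8 against IL-33 (SE 0.06, adjusted p = 0.00017). The procollagen proteinase gene *Bmp1* was lower in LM8 than in IL-33 mice (-0.47, SE 0.08) and than in control (-0.53, SE 0.06, adjusted p = 0.0011). *Adamts2*, which removes the other propeptide, was at -0.64 (SE 0.06) and -0.51 (SE 0.12), the latter call lost without IL-33+LM8 replicate 3 (-0.50). In IL-33+LM8 against control 3 genes of the list were higher and 3 lower.

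Of 13 proteins that bind fibrils, 2 rose and 6 fell with IL-33, beside 27.4% and 27.2% of all genes. The risers were *Tgfbi*, at 15.7, 16.3 and 15.2 FPKM in control, 59.7, 57.5 and 65.3 FPKM in IL-33 and 34.3, 36.98 and 33.5 FPKM in IL-33+LM8 lungs (1.95, SE 0.06, adjusted p = 1.4e-06), and *Fn1*, fibronectin, at 71.2, 46.3 and 56.5, 192, 192 and 192 and 77.7, 87.3 and 77.7 FPKM (1.73, SE 0.15, adjusted p = 7.7e-05). The small leucine-rich proteoglycan *Ogn* (-1.18) and tenascin-X, *Tnxb* (-1.04), fell. In IL-33+LM8 against control 1 was higher, *Tgfbi* (1.16), and 10 were lower, including *Lum* (-0.99) and *Aspn* (-0.99), and between LM8 and IL-33 mice 2 were higher and 5 lower, including *Sparc* (-0.67), the most abundant of the list. Of 13 tested basement membrane partners, laminin chains, nidogens and heparan sulfate proteoglycans, 10 fell with IL-33 and 3 were not called, where 27.2% of all genes fell. *Lama3*, the α chain of laminin-332, was at 22.5, 14.9 and 18.8 FPKM in control and 8.11, 7.27 and 6.93 FPKM in IL-33 lungs (-1.33, SE 0.15, adjusted p = 0.00024), *Nid2* was at -0.95, and *Agrn*, the most abundant of the list, was at -0.54 with IL-33+LM8 against control. In that comparison 11 of the 13 were lower, beside 13.4% of all genes. Between IL-33+LM8 and IL-33 2 were higher and 2 lower, near the 12.6% and 13.9% of all genes, and of the higher ones *Lama2* (0.29) lost its call under 10 of 15 alternatives, among them the fits without any 1 of the IL-33 mice (0.28 to 0.32) or without IL-33+LM8 replicate 1 (0.22) or 3 (0.28).

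Most collagen receptors fell with IL-33, and most genes of collagen uptake and cleavage rose. Of 8 tested receptors, 6 fell and 1 rose with IL-33, and of 9 tested uptake and cleavage genes 1 fell and 7 rose, beside 27.2% and 27.4% of all genes. *Itga1*, the α1 subunit of a collagen-binding integrin, was at 17.4, 17.3 and 17.3 FPKM in control, 8.16, 7.56 and 8.48 FPKM in IL-33 and 12.7, 9.94 and 11.00 FPKM in IL-33+LM8 lungs (-1.10, SE 0.06, adjusted p = 5.9e-06), and the kinase receptor *Ddr2* was at -0.59, while *Lair1*, an inhibitory receptor of leukocytes, rose by 1.15 (SE 0.16, adjusted p = 0.00083). With LM8, 2 receptors were higher than with IL-33 (*Itga1* at 0.47 and *Ddr2* at 0.36) and 6 were not called, and against control 1 was higher and 3 lower, among them *Ddr2* (-0.22), whose call was lost under 6 of 15 alternatives. *Cd36* was the most abundant gene of this list. *Mmp13*, an interstitial collagenase, was at 0.413, 0.472 and 0.438 FPKM in control, 5.36, 5.37 and 6.20 FPKM in IL-33 and 0.465, 0.588 and 0.592 FPKM in IL-33+LM8 lungs, so that the LM8 and control groups were close (3.66 with IL-33, SE 0.14, adjusted p = 2.1e-06; -3.35 with LM8, SE 0.16). *Mmp8*, the collagenase of neutrophils, was higher still with LM8, at 0.604, 1.56 and 1.04 FPKM in control, 6.97, 5.50 and 6.25 FPKM in IL-33 and 43.3, 32.3 and 38.1 FPKM in IL-33+LM8 lungs (2.60 for LM8 against IL-33, SE 0.13, adjusted p = 4.9e-05), and *Mmp9* did likewise (1.86, SE 0.14). *Ctsk*, cathepsin K (2.91, SE 0.10), and *Mrc1*, a collagen uptake receptor of macrophages (2.19, SE 0.07), rose with IL-33 and were lower with LM8 (-1.52 and -0.86). *Mmp2* was the most abundant gene of the list. *Mmp13* averaged 0.441 FPKM in control and 0.548 FPKM in IL-33+LM8 lungs, near the limit of 0.5 FPKM, and its IL-33 level carried it clearly past. Its rise with IL-33 kept its call under all 15 alternatives. Between IL-33+LM8 and IL-33 2 uptake and cleavage genes were higher and 6 lower, and between IL-33+LM8 and control 4 were higher and 3 lower. Of all genes, 12.6% were higher and 13.9% lower in the former comparison, and 16.3% and 13.4% in the latter.

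Markers of the cell types of the lung differed between the same groups, and their part in the collagen results was not tested. Of all genes tested 27.4% rose and 27.2% fell with IL-33, and 12.6% were higher and 13.9% lower with LM8 than with IL-33. The FPKM of 8 fibroblast markers, genes of the main collagen-producing cells, summed to 1237 to 1368 in control, 387 to 429 in IL-33 and 693 to 1178 in IL-33+LM8 lungs, and 7 of the 8 fell with IL-33 and 7 were higher with LM8 than in IL-33 mice. By group, fibrillar collagen mRNA was highest and these markers were lowest with IL-33, and a link between them was not tested. Of 8 smooth muscle and myofibroblast markers 3 rose with IL-33 (sums 226 to 258, 324 to 339.9 and 363 to 407), and of 8 pericyte markers 6 fell (sums 150.00 to 162, 85.4 to 86.7 and 105 to 127). The 8 endothelial markers, of cells that rest on type IV collagen, summed to 821 to 891, 496 to 536 and 758 to 779, with 6 lower with IL-33. Of 8 alveolar type 1 markers, which tag the thin epithelium of the gas exchange surface, 7 fell and 1 rose (sums 1523 to 1649, 823 to 858 and 1163 to 1209). Of 8 alveolar type 2 markers 4 fell, and of 6 tested airway epithelial markers 3 fell and 1 rose. Mesothelial markers summed to 116 to 171 in control and 68.7 to 97.5 in IL-33 lungs, and 4 of 6 tested ones fell. All 8 leukocyte markers rose with IL-33 (sums 176 to 197, 649 to 675 and 439.6 to 461), and all 8 were lower with LM8 than in IL-33 mice. Markers of skeletal or heart muscle summed to 143 to 149 in control, 25.9 to 42.5 in IL-33 and 40.04 to 74.2 in IL-33+LM8 lungs, and 4 of 5 tested ones fell. Of 8 chondrocyte markers 1 reached the expression limit (*Chad*).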

How the data were processed

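RNA of whole lungs from 9 mice was sequenced in paired ends, and the deposited table held, for each mouse, raw read counts per gene and FPKM computed by the authors. The submitters' processing notes name HISAT2 2.0, StringTie 1.3.0, Bowtie 0.12.2 and build mm10, without their roles or the strand setting of the counting. Gene coordinates of the table matched those of GRCm38 (GENCODE M21) for 3 of the 44 collagen genes, so positions are given from that annotation by gene ID, and sequences are from RefSeq (GRCm38.p6). Mice were grouped by the treatment in the labels.

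Counts were tested with edgeR 4.0.16 (R 4.3.3), the quasi-likelihood test with TMM normalization, on the 6 mice of each comparison over genes whose FPKM averaged 0.5 or more over all 9 mice, with adjustment over all genes tested. The edgeR and DESeq2 fits of IL-33 against control were also run on simulated counts, and the other comparisons and fits were not. Alternatives were other filters and scalings, DESeq2 1.42.0, limma 3.58.1 on log2(FPKM + 1) and log2(FPKM + 0.1), a fit of all 9 mice, the replicate number as a block, and each mouse left out. Same-numbered mice of the IL-33+LM8 and control groups deviated together (correlations 0.389, 0.428 and 0.732). Control replicate 1 with IL-33+LM8 replicate 2 (0.322) and control replicate 2 with IL-33+LM8 replicate 1 (0.307) did so too. Pairing by number is therefore not established, and no label gives a reason for it. The values with the block are given for that comparison where they change a call. In the other comparisons 2 of 3 correlations of same-numbered mice were below 0.

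No library was a copy of another, as the variance between libraries of a group was 22.0 times that of sampling or more. That they are separate mice is taken from the labels. Members called in at least 1 comparison are described with each mouse's value, with the 3 most abundant members of each class. From each list of partner genes at most 4 called genes per comparison and the most abundant gene are named. The members and all lists were chosen with earlier results of these data known, so counts within a list are descriptions. Reads carry no molecular identifiers, and limits from counts cover counting error only. Of the collagen genes, 19 overlap another gene of the table, 12 of them on the opposite strand, where reads cannot be assigned without strand.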

Additional observations from a re-analysis of the deposited data

How the results depend on the processing

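Of the log2 fold changes of collagen genes recomputed under the alternatives, 899 values of called genes had the same direction and call, 76 kept the direction and lost the call, and no called value turned its sign. A further 22 values, of *Col4a2*, *Col5a2*, *Col5a3*, *Col11a2*, *Col13a1*, *Col15a1* and *Col20a1*, passed the threshold under an alternative although the gene was not called in that comparison. Of the values of called partner genes that were recomputed, 1172 were still called and 43 were not. All collagen values that turned were of genes not called. When mice were left out one by one, *Col4a1* ranged on the log2 scale from -0.0333 to 0.268 (IL-33 against control) and from -0.258 to 0.0361 (IL-33+LM8 against control). *Col4a2* ranged from -0.240 to 0.0183 and *Col6a3* from -0.0442 to 0.242 in IL-33 against control. *Col27a1* ranged from -0.0509 to 0.138, *Col4a5* from -0.0076 to 0.0984 and *Col4a6* from -0.0145 to 0.215 in IL-33+LM8 against IL-33. *Col11a2* ranged from -0.291 to 0.069 and *Col14a1* from -0.083 to 0.0972 in IL-33+LM8 against control, and *Col14a1* was at 0.0088 without a filter and 0.0136 with filterByExpr. The cause was not tested.

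With a minimum log2 fold change of 1, 6 collagen genes were lower with IL-33 than in control. Between LM8 and IL-33 mice the edgeR counts were then 0 higher and 8 lower, in IL-33+LM8 against control 2 higher and 1 lower, by construction of the stricter rule. Without a filter on low values 2 genes were higher in IL-33+LM8 than in control. With each mouse left out, that number ranged from 2 (without control replicate 2 or 3, or without IL-33+LM8 replicate 2 or 3) to 5, and the number of lower genes from 7 (without IL-33+LM8 replicate 3) to 14. The replicate block gave 12 higher and 13 lower for IL-33 against control, 5 and 15 for IL-33+LM8 against IL-33, and 4 and 14 for IL-33+LM8 against control, where it gave 3388 higher and 3034 lower of all 16829 genes instead of 2741 and 2256. In IL-33+LM8 against control the block changed the call of *Col5a3* alone among the collagen genes. With the block, *Col4a1*, *Col20a1* and *Col23a1* lost their calls between LM8 and IL-33 mice. The call of *Col24a1* in IL-33+LM8 against control was also lost with limma (0.22 on the log2(FPKM + 1) scale). Settings other than a left-out mouse also cost further genes their calls. In all, *Col4a1* and *Col20a1* lost theirs in IL-33+LM8 against IL-33 under 5 and 9 of 15 alternatives. *Col5a1*, *Col6a1*, *Col16a1* and *Col17a1* lost theirs in IL-33+LM8 against control under 6, 6, 5 and 7.

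With 3 mice in a group and no LM8 group without IL-33, small differences such as those of *Col4a1* and *Col4a2* are bounded by the spread of the control mice. No genome or annotation with the table's own gene coordinates was used.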
